A study of Mus musculus with 3 samples.

Results

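Genes of iron uptake, storage and control were followed in regulatory T cells (Treg), a Foxp3-dependent branch of CD4 T cells that holds immune responses in check. Their choice, by name for textbook roles, was made with earlier results of these data known. They number 10 of the 50600 annotated genes in the deposited tables. They are Tfrc, Slc11a2 and Steap3 (uptake), Fth1, Ftl1 and Ncoa4 (storage and release), Slc40a1 (export), Hmox1 (release of iron from heme), and Ireb2 and Aco1 (control). The samples were primary Treg of mouse strain C57BL/6NJ, which the file headers describe as activated for 16 hours, and RNA was sequenced from 3 libraries, numbered replicates 2, 3 and 4. No genotype, transgene or drug is given in the labels, and a differentiation protocol for CD4 T cells is linked by name only. With 1 group there is no second condition, so levels were compared between genes within a library and between the 3 libraries. The libraries share 1 donor identifier, age and sex are not given, and the labels do not say which animals each came from. SDs therefore rest on the spread between libraries, in which animals and technical steps cannot be told apart. For ratios between genes, each of which had the same sign in all 3 libraries, the p-value does not depend on that spread. The p-values of the chi-square test between libraries set differences against counting error only.

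T cells that leave rest take up iron through the transferrin receptor, and iron not used for enzymes, heme or iron-sulfur clusters is held in ferritin. Iron regulatory proteins 1 and 2, encoded by Aco1 and Ireb2, bind short hairpins called iron-responsive elements when iron is scarce. Binding in the 5′ UTR of ferritin and ferroportin mRNAs blocks their translation, whereas binding in the 3′ UTR of the transferrin receptor mRNA protects that mRNA from decay. An mRNA level therefore can register the second kind of control but not the first.

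The hairpins themselves are shown first because they are the sequence feature that ties these genes to 1 control circuit, and they played no part in choosing the genes. Coding transcripts of GENCODE M21 (build GRCm38, the same assembly as mm10) were searched on the transcript strand for a C, then an arm of 5 bases, the loop CAGTGN and a second arm of 5 bases, a core of 17 bases in which all 5 positions of the arms pair with each other (Watson-Crick or G with T). Capitals mark the unpaired C and the loop of 6 bases, and each run of 30 bases reads 5′ to 3′.
Fth1, 5′ UTR: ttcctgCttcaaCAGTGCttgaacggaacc
Ftl1, 5′ UTR: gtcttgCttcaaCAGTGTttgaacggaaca
Slc40a1, 5′ UTR: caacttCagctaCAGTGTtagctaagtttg
Tfrc, 3′ UTR, site 1: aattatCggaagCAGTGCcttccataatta
Tfrc, 3′ UTR, site 2: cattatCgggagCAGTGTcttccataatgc
Tfrc, 3′ UTR, site 3: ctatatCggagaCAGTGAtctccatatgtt
Tfrc, 3′ UTR, site 4: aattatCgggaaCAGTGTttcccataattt
Slc11a2, 3′ UTR: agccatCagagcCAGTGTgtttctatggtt

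The Fth1 site lies at chr19:9982732-9982761 on the plus strand and is in 4 of 5 coding transcripts of the gene. The Ftl1 site lies at chr7:45459778-45459807 on the minus strand (1 of 2 coding transcripts), and the Slc40a1 site at chr1:45925464-45925493 on the minus strand (1 of 4). The 4 Tfrc sites lie in the same 3′ UTR on the plus strand, at chr16:32631219-32631248, chr16:32631598-32631627, chr16:32631663-32631692 and chr16:32631710-32631739, in 1 of 3 coding transcripts. The Slc11a2 site, at chr15:100395152-100395181 on the minus strand, has 4 of the 5 pairs and is in 1 of 6 coding transcripts. Each of these sites is missing from some coding transcripts of its gene, so a count over a whole gene can mix forms with and without it. At 4 or more pairs, 872 of the 21877 protein-coding genes (3.99%) have a 3′ UTR site. Among genes of related pathways these include Bach1, Iba57, Bola3 and Glrx3. A UTR site with all 5 pairs was found in 4 of the 10 genes (40%), in 160 of 21877 protein-coding genes (0.731%), and in 2 of 92 genes listed from related pathways, namely Alas2 and Bola3. These genes are known for this control, so the share describes them and supports nothing further.

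Depth was 41222058, 47665060 and 99097524 assigned fragments in replicates 2, 3 and 4. The labels were checked against markers: all 9 Treg and T cell genes looked at exceeded 10 TPM throughout, with Foxp3 at 76.4, 82.3 and 83.9 TPM and Trac highest at 1743 ± 26.3 (SD, n = 3). No markers of other CD4 T cells were looked at, so a share of such cells was not tested. TPM, a level per transcript length and library total, was computed from the deposited fragment counts and the merged exon length of each gene. Of 14 macrophage markers, 13 stayed under 1 TPM in every library and 7 had no fragment, with a summed level of 5.64, 4.45 and 3.09 TPM in replicates 2, 3 and 4, most of it Cd68. Of 10 erythroid markers none reached 1 TPM in every library, the highest being Gata1, 5 including the globin genes Hba-a1, Hbb-bs and Hbb-bt had no fragment, and the sum was 1.23, 1.90 and 2.72 TPM. B cell markers, led by Cd79a, summed to 3.03 to 3.27 TPM and dendritic cell markers, led by Zbtb46, to 0.759 to 1.26. Libraries differed in sex-linked RNA, on which the labels are silent: Xist stood at 126, 0.331 and 36.1 TPM and the Y-linked gene Ddx3y at 0.126, 39.3 and 28.4 TPM in replicates 2, 3 and 4. Replicates 2 and 3 thus did not come from the same animal or pool, and replicate 4 held both kinds of RNA. Differences between these libraries cannot be told apart from differences of sex. The levels of the iron genes, their ratios and the calls between libraries were therefore also computed without each library.

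The iron genes spanned the range from some of the most abundant mRNAs of these cells to none. In every library, 9 of the 10 had at least 1 TPM, 7 at least 10 and 3 at least 100. The same levels were reached by 45.6%, 34.8% and 8.8% of 21764 protein-coding genes. The median over the 10 genes was 30.0 TPM, beside 0.355 TPM over all protein-coding genes. In order of mean level the genes ran Fth1, Ftl1, Tfrc, Aco1, Ireb2, Slc11a2, Ncoa4, Hmox1, Steap3 and Slc40a1. Of the 9 neighbouring pairs in that order, only Slc11a2 and Ncoa4 had overlapping values over the 3 libraries. The order was the same when each gene was divided by the length of 1 principal transcript, a choice made after seeing the data. In CPM, counts scaled to the library total with no division by length, it differed: Tfrc came before Fth1 and Ftl1, Ireb2 before Aco1 and Steap3 before Hmox1.

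**Figure D1:**
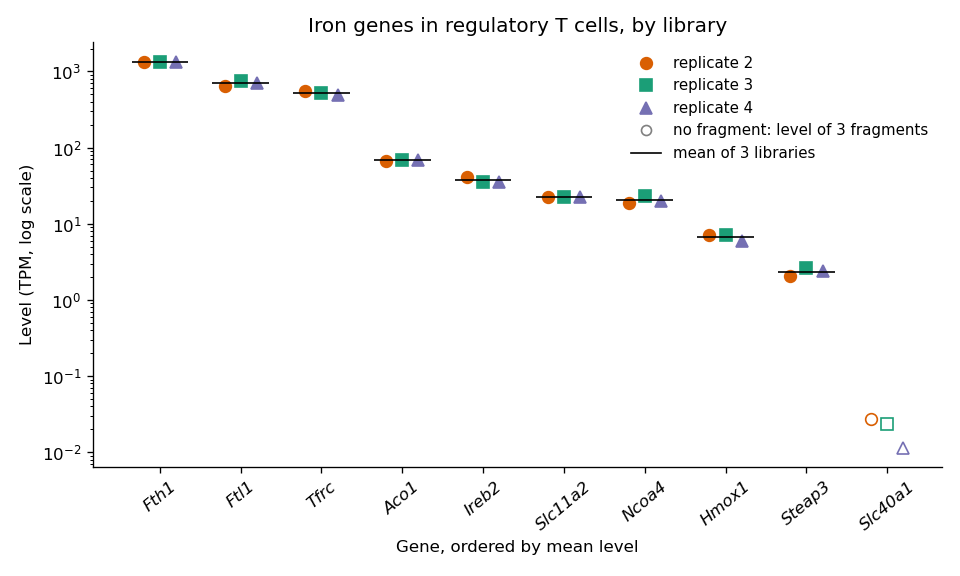
Level of each iron gene in TPM (log scale) in replicates 2, 3 and 4, with the mean as a black line. Fth1, Ftl1 and Tfrc stand at 493 TPM or higher, and Slc40a1 had no fragment, so its open symbols stand at the level that 3 fragments would make.

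Uptake genes differed widely in level. Tfrc encodes the transferrin receptor (CD71), which carries iron-laden transferrin into endosomes, and lies on chromosome 16 (32608920 to 32632794, ENSMUSG00000022797.15). It stood at 561, 514 and 493 TPM in replicates 2, 3 and 4, or 523 ± 34.96 (SD, n = 3), above 98.8% of protein-coding genes. Its 42359, 45580 and 89090 fragments were the most of the 10 genes. The values were highest in replicate 2 and lowest in replicate 4, the sample with the deepest sequencing.

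Slc11a2 encodes the divalent metal transporter DMT1, which moves iron out of the endosome, and lies on chromosome 15 (100387898 to 100425072). It was at 22.2, 22.8 and 22.7 TPM, a mean of 22.5 ± 0.320. All 3 libraries were nearly level. Steap3, an endosomal ferrireductase that prepares iron for that transporter, lies on chromosome 1 (120190757 to 120272705) and was at 2.06, 2.61 and 2.37 TPM (2.35 ± 0.275), from 144, 214 and 396 fragments.

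Within each library Tfrc exceeded Slc11a2 by 25.3, 22.6 and 21.7 times in TPM. The log2 ratio, with 1 TPM added to each gene, was 4.47 ± 0.11 (SD, n = 3). Slc11a2 exceeded Steap3 by a log2 ratio of 2.82 ± 0.10, from 2.72 to 2.92 in single libraries. The receptor was thus the most abundant of the 3 uptake mRNAs in 3 of 3 libraries, followed by the transporter and then the reductase. In all, 6 such ratios were formed between the iron genes. For each of them the exact two-sided sign-flip permutation test gave p = 0.25 (0.25 after Benjamini-Hochberg adjustment over the 6), which is the lowest value possible with 3 libraries, and a threshold of 0.05 cannot be reached.

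Export was at the other end. Slc40a1 encodes ferroportin, the exporter of cellular iron, and lies on chromosome 1 (45908068 to 45926523, ENSMUSG00000025993.10). It had no fragment in any of the 3 libraries, and 3 fragments would have made 0.0273, 0.0233 and 0.0114 TPM in replicates 2, 3 and 4. Having no fragment was shared with 37.9% of protein-coding genes. Against that floor of 3 fragments per library, Tfrc was at least 20546, 22108 and 43213 times higher in TPM, the last value reflecting the deeper sequencing of replicate 4. These bounds use merged exon lengths of 6185 bases for Tfrc and 9000 for Slc40a1. With principal transcript lengths (4890 and 3370 bases), or without division by length, they would be lower. Ferroportin mRNA is abundant in macrophages that recycle iron. Of the 14 macrophage markers, Csf1r, Lyz2, C1qa, C1qb, Timd4, Fcgr1 and Marco had no fragment either, whereas the rest had some. Cd68 had 81, 76 and 109 fragments in replicates 2, 3 and 4, and Vcam1 had 14, 6 and 16. Adgre1 had 4, 0 and 5, Cd14 had 2, 4 and 0, and Spic, Mrc1 and Siglec1 had 1 fragment each in 1 library. In a bulk sample, fewer cells of a type and less RNA per cell cannot be told apart.

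Per length, storage genes held the 2 highest levels, whereas in CPM Tfrc (961 ± 64.4) was above Fth1 (342 ± 5.30) and Ftl1 (281 ± 23.7; SD, n = 3). Fth1, the ferritin heavy chain with ferroxidase activity (chromosome 19, 9982703 to 9985092, ENSMUSG00000024661.6), was at 1342, 1329 and 1316 TPM, or 1329 ± 12.9 (SD, n = 3), above 99.7% of protein-coding genes. Ftl1, the light chain that favours mineral formation in the shell (chromosome 7, 45457944 to 45459884, ENSMUSG00000050708.16), was at 648, 756 and 708 TPM (704 ± 54.0). The 3 heavy chain values were nearly level, whereas the light chain was lowest in replicate 2 and highest in replicate 3. Heavy and light chain together made 1990, 2085 and 2023 TPM, of which Fth1 was 67.4%, 63.7% and 65.0%.

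The excess of Fth1 over Ftl1 was 2.07, 1.76 and 1.86 times in TPM, a log2 ratio of 0.92 ± 0.12 (SD, n = 3) with the same sign in 3 of 3 libraries. Its size depended on gene length. Principal transcripts of GENCODE M21 have 929 bases for Fth1 and 968 for Ftl1, against merged exon lengths of 866 and 1340 in M13. With principal transcript lengths the mean log2 ratio was 0.35, and without division by length it was 0.29. Fth1 itself was at 830 TPM with principal transcript lengths, a scale on which the lengths of other genes change as well. Ftl1 is also uncertain because 13 other annotated genes have transcripts that match it over 100 bases or more at 95% identity or more. The longest match, Ftl1-ps1, runs over 910 bases at 99.6% identity, and no such match was found for Fth1. By the counting program's defaults a fragment that aligns to several places is left out, which can lower Ftl1. The fragments assigned to the similar genes came to 0.179%, 0.179% and 0.133% of those of Ftl1.

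Ncoa4, the cargo receptor that delivers ferritin to lysosomes so that its iron is released, was at 19.0, 23.4 and 19.7 TPM (20.7 ± 2.35; chromosome 14, 32159865 to 32179855). Replicate 3 was higher than the others. Ncoa4 shares 1878 bases at 99.9% identity with the pseudogene Gm6768, so it is uncertain for the same reason, and fragments assigned to that pseudogene were 4.36%, 3.82% and 3.23% of its own.

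Hmox1, the inducible heme oxygenase that frees iron from heme (chromosome 8, 75093621 to 75100589), was low at 7.11, 7.05 and 5.92 TPM (6.70 ± 0.672), from 152, 177 and 303 fragments. It was lowest in replicate 4, but its difference between libraries did not pass the chi-square test (adjusted p 0.0724). The macrophage markers also had their lowest sum there (3.09 TPM against 5.64 and 4.45), and most of that sum was Cd68 alone. From replicate 2 to replicate 3 the sum fell while Hmox1 stayed nearly level. The part of those markers in the Hmox1 level was not tested. The constitutive enzyme Hmox2 was at 118, 115 and 111 TPM, and its values and those of Hmox1 did not overlap. Ncoa4 exceeded Hmox1 in 3 of 3 libraries, by a log2 ratio of 1.49 ± 0.17 (SD, n = 3), with 1.30 in replicate 2 and 1.60 and 1.58 in replicates 3 and 4.

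Both control genes were expressed at moderate levels. Aco1 encodes iron regulatory protein 1, which serves as a cytosolic aconitase when it carries an iron-sulfur cluster (chromosome 4, 40143081 to 40198338). It was at 67.2, 69.4 and 68.4 TPM, or 68.3 ± 1.10 (SD, n = 3). Ireb2 encodes iron regulatory protein 2, which is degraded when iron is plentiful (chromosome 9, 54863789 to 54912530), and was at 41.2, 35.4 and 35.7 TPM (37.4 ± 3.25). Ireb2 was highest in replicate 2, while Aco1 varied little.

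Per length, Ireb2 was lower than Aco1 in 3 of 3 libraries, with a log2 ratio of -0.69, -0.95 and -0.92 and a mean of -0.85 ± 0.14 (SD, n = 3). With principal transcript lengths the mean was -0.38. In CPM the direction turned to 0.20, since the merged exons of Ireb2 span 9479 bases and those of Aco1 4496. The direction of this pair therefore holds per length only.

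**Figure D2:**
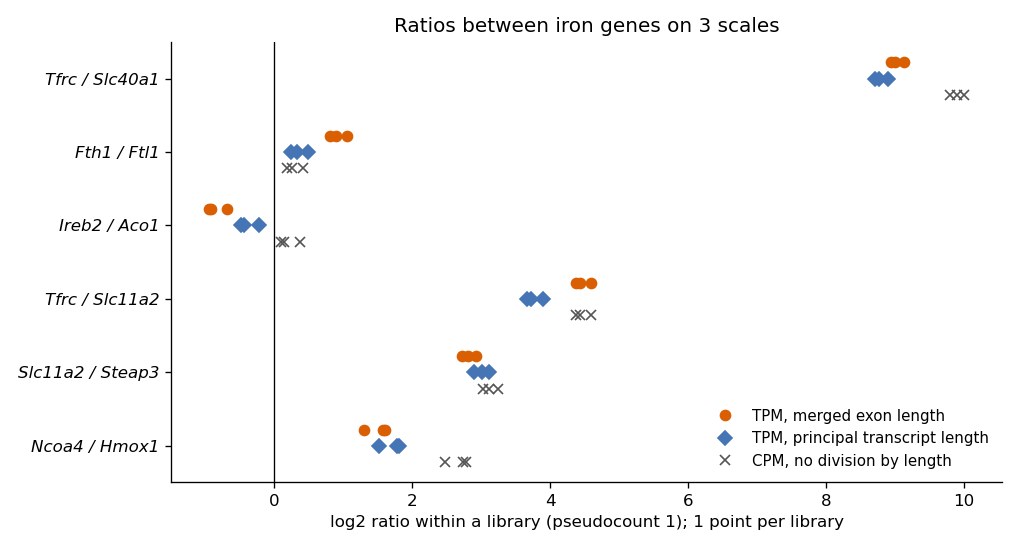
Log2 ratio between 6 pairs of iron genes within each library (1 point per library, pseudocount 1) on 3 scales: TPM with merged exon length, TPM with principal transcript length, and CPM. Points of a pair lie close together within a scale, the Fth1 to Ftl1 ratio shrinks from 0.92 to 0.35 and 0.29 on average, and the Ireb2 to Aco1 ratio crosses 0 in CPM.

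Between the 3 libraries the iron genes varied about as much as protein-coding genes at large: the median highest-to-lowest CPM ratio was 1.16 over the 9 tested iron genes and 1.16 over 11461 tested protein-coding genes. A chi-square test of equal rates was run for each gene with 30 or more fragments in all, on library sizes scaled by edgeR's trimmed mean of M values (TMM), and a call needed an adjusted p under 0.05 together with CPM in the highest library at least 2 times that in the lowest. Of the 9 iron genes tested none was called, beside 10.9% of the 13688 genes tested and 759 of the 11461 protein-coding genes tested. A count of 0 among 9 is thus near the background. Slc40a1 could not be tested. The share of all genes called was 16.1% at a ratio of 1.5 or more, and at a ratio of 2 it was 5.85%, 3.9% and 4.28% without replicates 2, 3 and 4. The iron genes, with ratios of 1.03 to 1.29, lie under either ratio whichever libraries are used. The test covers counting error only and compares these libraries, not conditions.

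Without a minimum ratio, 5 of the 9 passed an adjusted p of 0.05: Tfrc, Ftl1, Ireb2, Ncoa4 and Fth1. The same held for 70.8% of all genes tested and for 8521 of the 11461 protein-coding genes tested. The ratios behind the 5 iron genes were small, at 1.14 for Tfrc, 1.19 for Ftl1, 1.16 for Ireb2, 1.26 for Ncoa4 and 1.03 for Fth1. The adjusted p of the chi-square test on edgeR's TMM sizes was 5.2e-112 for Tfrc and 0.00247 for Fth1. Aco1, Hmox1, Steap3 and Slc11a2 did not pass (adjusted p of the same test on edgeR's TMM sizes 0.0627, 0.0724, 0.0786 and 0.395), with ratios of 1.05, 1.22, 1.29 and 1.05. The highest ratio, that of Steap3, came with 144 to 396 fragments, so counting error is larger there. In CPM, Tfrc and Ireb2 were highest in replicate 2, and the other 7 were highest in replicate 3. Over the 7 iron genes at a mean of 10 TPM or more, the median coefficient of variation was 6.69%, beside 6.18% over 7743 protein-coding genes at that level.

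**Figure D3:**
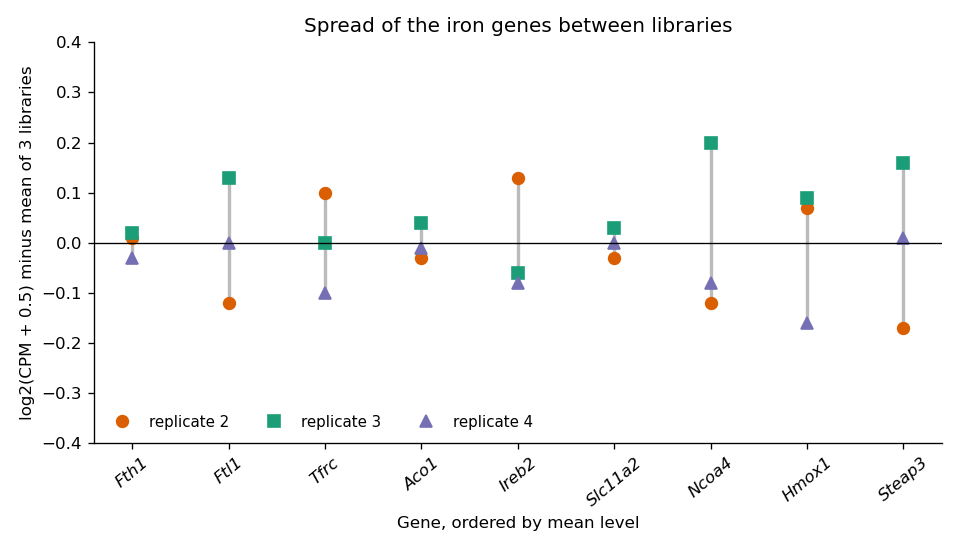
Deviation of each of the 9 iron genes with fragments from its mean over the 3 libraries, in log2(CPM + 0.5) on TMM sizes, by library. Deviations run from -0.17 for Steap3 in replicate 2 to 0.20 for Ncoa4 in replicate 3, and Fth1, Aco1 and Slc11a2 stay within 0.04 of 0.

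**Figure D4:**
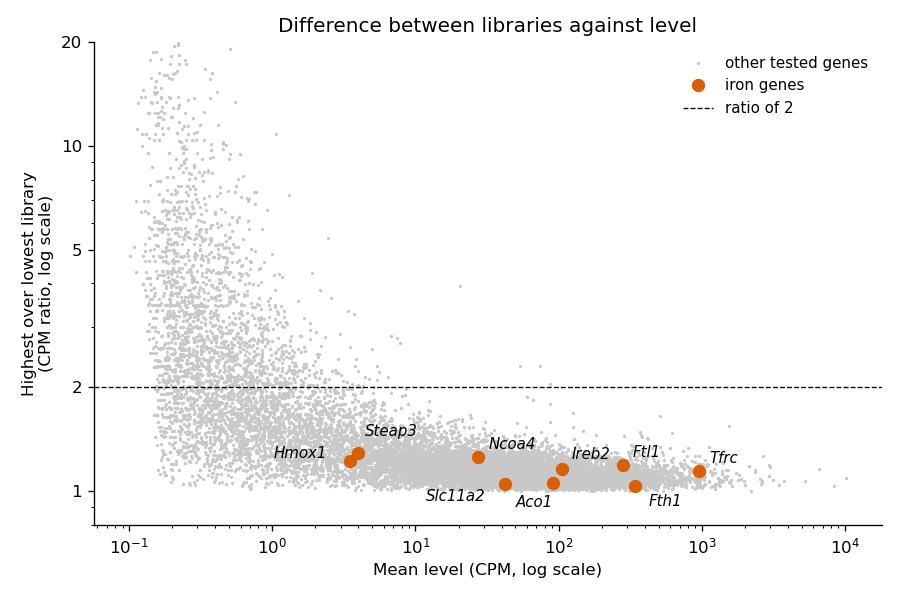
Highest-to-lowest CPM ratio between the 3 libraries against mean CPM (both axes log scale) for the tested genes in grey and the 9 tested iron genes in orange, with 29 genes above the plotted limit of 20. A library without fragments was set to 3 fragments, and all 9 iron genes lie under the dashed line at a ratio of 2, from 1.03 to 1.29.

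The rest of the iron pathway was described from 7 lists of 92 genes, of which 91 were found in the tables. In all, 65 reached 1 TPM in every library and 16 had no fragment, against 45.6% and 37.9% of protein-coding genes. Of 69 tested, 3 were called between libraries, beside 10.9% of all genes tested and 759 of 11461 protein-coding genes tested. The 3 were Epas1, the hypoxia factor HIF-2 alpha, with 16, 62 and 81 fragments, Tfr2, the second transferrin receptor, with 13, 25 and 11, and Cybrd1, a membrane ferrireductase, with 46, 17 and 56. All 3 were under 1 TPM in every library. The count was 1, 1 and 2 without replicates 2, 3 and 4.

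Among other genes of uptake and reduction, 8 of 15 reached 1 TPM in every library. The highest was Snx3, a sorting factor of endosomal recycling, at 446 ± 9.59 TPM (SD, n = 3). Hfe, Steap1, Steap2 and Steap4 had no fragment, so Steap3 was alone among the 4 Steap genes in having counts. Tfr2 was at 0.245 ± 0.158 TPM, far under Tfrc.

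In the list of other storage, chaperone and export genes, Pcbp1 and Pcbp2, RNA-binding proteins that also carry iron to ferritin, were the only genes detected, at 1350 ± 46.5 and 892.5 ± 31.1 TPM. The other 6 had no fragment in any library: mitochondrial ferritin (Ftmt), the ferroxidases Heph, Hephl1 and Cp that work with ferroportin, and the iron-binding secreted proteins Lcn2 and Ltf. The exporter and its ferroxidase partners were thus all without counts.

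Other regulators were detected unevenly. Skp1a, a subunit of the ubiquitin ligase that removes iron regulatory protein 2, was highest at 261 ± 21.1 TPM, and Fbxl5, the iron-sensing subunit of that ligase, was at 13.6 ± 1.68. The hepcidin genes Hamp and Hamp2, and Hfe2 and Bmp6, which drive hepcidin in the body, had no fragment. In this list 9 of 16 genes reached 1 TPM in every library.

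Heme and iron-sulfur cluster genes were expressed broadly. Among 9 heme synthesis genes, 8 had at least 10 TPM in every library, with Alad highest at 91.6 ± 6.12 TPM. The exception was Alas2, the erythroid form of the first enzyme, without a fragment, whereas the general form Alas1 was at 30.8 ± 1.19. Among 12 genes of heme transport and breakdown, 8 had at least 1 TPM in every library, with Hmox2 highest at 114 ± 3.32, and Flvcr2 had no fragment. In the mitochondrial list 19 of 20 genes reached 1 TPM in every library, with the chaperone Hspa9 highest (990 ± 23.98). The exception was Fdx1l, at 1.497, 0.981 and 1.56 TPM. The mitochondrial iron importers Slc25a37 and Slc25a28 stood at 43.7 ± 2.30 and 45.9 ± 0.518 TPM. All 11 cytosolic assembly genes found reached 10 TPM in every library, from Nubp2 (296 ± 16.3) down to Narfl (22.3 ± 1.81). List medians were 68.0 TPM for cytosolic assembly, 41.1 for the mitochondrial list, 30.8 for heme synthesis, 9.71 for regulation, 6.08 for heme transport, 4.11 for uptake and 0 for storage and export.

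**Figure D5:**
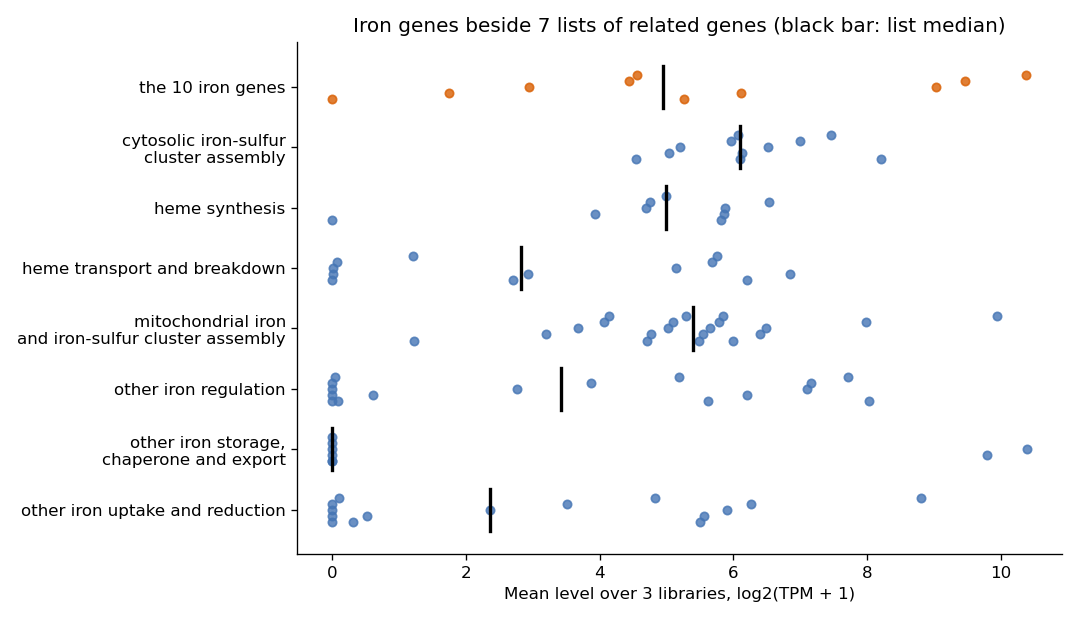
Mean level over the 3 libraries, as log2(TPM + 1), of each of the 10 iron genes (orange) and of the genes of 7 related lists (blue), with each list's median as a black bar. Cytosolic and mitochondrial cluster assembly genes lie mostly in 1 block of detected genes, while the storage and export list holds 2 detected genes and 6 at 0.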

How the data were processed

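Each library's file, as the authors deposited it, holds unnormalized fragment counts for every gene, made per the file headers with featureCounts 1.4.6-p4 on paired, reverse-stranded alignments (strand option 2, both ends aligned) over exons of GENCODE mouse M13. The build is mm10 per the labels. For the aligner's settings, nothing is given in the sources used here. The assay label says total RNA, and the linked library protocol names polyadenylated RNA.

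Symbols came from GENCODE M21 by unversioned identifier. TPM was count over merged exon length, scaled to the same total in each library. Library sizes were scaled with edgeR 4.0.16 (DESeq2 1.42.0 as alternative). Similar transcripts were sought with BLAST 2.17.0. Other steps used Python 3.11.15, numpy 2.4.6 and scipy 1.17.1. The chi-square step was tested on simulated counts that hold counting error and set changes but no other spread between libraries. That test thus says nothing on such spread. With 1 group, edgeR's own test had nothing to compare.

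The genes and lists were chosen with earlier results of these data known. Named were all 10 iron genes and, per list, the highest, the lowest and those called. Pcbp2, Fbxl5, Alas1, the mitochondrial importers and single marker genes were added after their values were seen. Cfd1 was not matched. Floors of 3 fragments cover counting error only, since no molecular identifiers are named.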

Additional observations from a re-analysis of the deposited data

How the results depend on the processing

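None of the 9 tested iron genes was called between libraries with DESeq2 size factors, plain library totals or no filter on low counts. Leaving out a library could not add a call, since their ratios were at most 1.29. The number of all genes called was 1496, and it became 2816 without the filter on low counts, where more genes enter, and 514 to 774 with 1 library left out. The iron genes with an adjusted p under 0.05 at any ratio numbered 5, and 4 to 6 over the alternatives. All 6 log2 ratios kept their sign with a pseudocount of 0.1 and with principal transcript lengths. Their signs were the same in each single library, so leaving one out could not turn them. In CPM, the Ireb2 to Aco1 ratio turned from -0.85 to 0.20, by the construction of that scale, and the others kept their sign. Detection counts over the 7 lists ran from 62 to 66 around 65. No paired analysis was possible because there is only 1 group. Depth limits Slc40a1 to under the level of 3 fragments, and Steap3 and Hmox1 rest on 144 to 396 fragments per library. With no second condition, and no animals named in the labels, statements are limited to these 3 libraries.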
